A study of Mus musculus with 6 samples.

Results

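The inhibitors of cyclin-dependent kinases (CDKs) of the Ink4 and the Cip/Kip families were followed through blood stem and progenitor cells of Bmi1 KO and WT mice. The members were every probe that carried the gene name Cdkn2a, Cdkn2b, Cdkn2c or Cdkn2d (the Ink4 family) or Cdkn1a, Cdkn1b or Cdkn1c (the Cip/Kip family). They made up 7 of the 34797 gene names on the array and 12 of its 55681 probes, 6 in each family. RNA came from hematopoietic stem cells (HSCs), which sustain blood formation for life, and from multipotent progenitors (MPPs), which descend from them and do not self-renew for long. Both were sorted by flow cytometry from mice of the C57BL6 background aged 2 to 3 months. The groups were WT HSCs, Bmi1 KO HSCs, WT MPPs and Bmi1 KO MPPs, each with 3 samples that the labels call biological replicates, on 6 two-colour Agilent arrays. Each array set 1 KO sample, in red (Cy5), against 1 WT sample of the same population, in green (Cy3). The dyes were never exchanged, so a dye effect of a single probe lies in the same direction as genotype in every ratio. It cancels in a comparison of MPPs with HSCs within 1 dye. The labels give neither the part of Bmi1 that the KO allele lacks nor the surface markers of the sort, and they do not say whether animals were pooled.

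Ink4 proteins bind CDK4 and CDK6 and keep them from the D cyclins, whereas Cip/Kip proteins bind cyclin-CDK complexes more broadly and restrain CDK2. Both leave the retinoblastoma protein unphosphorylated, so that it holds back the E2F factors and with them the entry into S phase. Cdkn2a and Cdkn2b lie side by side on mouse chromosome 4 and are classic targets of Polycomb repression by Bmi1. In blood stem cells, p57 (Cdkn1c), p27 (Cdkn1b), p21 (Cdkn1a) and p18 (Cdkn2c) are known as regulators of quiescence and self-renewal.

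What a probe can tell depends on where it lies in its gene. Cdkn2a encodes p16Ink4a and p19Arf from separate first exons that join shared downstream exons in different reading frames. Both Cdkn2a probes list the transcripts of both products and lie 138 bases apart, so the products could not be told apart. A_55_P2008437 was at chromosome 4, 88920405 to 88920464, and A_55_P2008438 at 88920543 to 88920602 (minus strand, mm9). The last 30 bases of these 60-base probes are shown because every Cdkn2a value below rests on them.
A_55_P2008437: aagggaataatggctggattgtttaaaaaa
A_55_P2008438: ggctttaaaaaatacataataatgcttttt

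Cdkn1a, in contrast, was read at separate places along the gene on chromosome 17 (plus strand, mm9). A_55_P1986282 (29227986 to 29228045) is assigned to only 1 of the RefSeq transcripts, the variant with the upstream first exon, and lies 9391 bases before A_51_P363947 (29237377 to 29237436), which both RefSeq transcripts share. A_55_P1976204 (29235299 to 29235358) carries no RefSeq transcript in the files. The last 30 bases of each are shown because these probes gave different answers, with an ATG in 1 of them in capitals, the place where the p21 reading frame begins.
A_55_P1986282: acgtcccactttgccagcagaataaaaggt
A_55_P1976204: tcttgtgtttcagccacaggcaccATGtcc
A_51_P363947: gctgatcctttctcagtgttgaataccgtg

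Both genes also have separate start sites in RefSeq (GRCm38.p6, a build other than that of the probes). The promoter table, which runs from 250 bases before to 50 after each start, holds 9 promoters of 6 members and none for Cdkn1c, and it does not pair starts with transcripts. The Cdkn2a starts lie 12427 bases apart. The 60 bases before each are printed with CpG dinucleotides in capitals, because CpG-rich start sites are the ones Polycomb is known to occupy in mammals.
Cdkn2a, chr4:89282193-89282252, minus strand: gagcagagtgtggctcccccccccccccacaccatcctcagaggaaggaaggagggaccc
Cdkn2a, chr4:89294620-89294679, minus strand: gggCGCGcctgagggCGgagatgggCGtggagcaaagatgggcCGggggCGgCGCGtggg

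The first of these stretches held 0 CpGs and the second held 8. Over their full 300 bases the 2 promoters held 12 and 45 CpGs, against a median of 7 over all 32851 promoters in the table, and the second was richer in CpGs than 98.1% of them. The upstream promoter of Cdkn1a, 2790 bases before the other one, held 2 CpGs. It also held a match to the p53 consensus with 1 mismatch outside the core (in capitals), starting 51 bases before the start site. Cdkn1a is the textbook p53 target gene, and such a match, on either strand, was found in 0.0548% of all promoters.
Cdkn1a, chr17:29090908-29090967, plus strand: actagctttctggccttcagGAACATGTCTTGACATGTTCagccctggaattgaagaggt

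The median spot signal of the arrays was 124 to 206 in green and 379 to 581 in red, and 72.5% to 82.2% of spots in green and 78.8% to 83.9% in red were well above background. With 3 arrays a group, their number sets the precision. Across the 44640 probes tested, the log2 ratios of replicate arrays had a correlation near 0, with r from -0.07 to 0.08 in HSCs and from -0.01 to 0.20 in MPPs. The 2 Bmi1 probes showed no common loss of signal in the samples labelled KO. The log2 ratio of A_55_P2170335 was above 0 on 2 of 6 arrays and that of A_52_P39157 on 4 of 6, and on 6 of 6 arrays the KO channel of each gave signal well above background. They may lie outside the deleted part, so they do not check the genotype, which is taken from the labels. The cell labels fitted their markers in part. All 12 HSC markers were lower in WT MPPs than in WT HSCs (median log2 difference -1.26; 0 called by limma, 7 with an unadjusted p under 0.05) and all 8 MPP markers were higher (median 3.02, 3 called). Within KO 10 of 12 HSC markers were lower in MPPs (median -1.48; 0 called, 9 with an unadjusted p under 0.05) and 8 of 8 MPP markers higher (median 2.68, 2 called). All 8 markers shared by stem and progenitor cells were lower in KO than in WT MPPs (median -0.42; 0 called by limma, 1 with an unadjusted p under 0.05). In KO MPPs, however, all 14 tested B lineage markers had a positive log2 ratio over WT (median 2.96; 0 called by limma, 12 with an unadjusted p under 0.05). Their mean level ran from 9.87 to 12.3 in KO MPPs, from 8.57 to 8.74 in WT MPPs and from 7.80 to 8.21 in all HSC samples. By array the median ratio of these markers was 0.98 on MPP 1, 2.89 on MPP 2 and 3.49 on MPP 3. In RNA of whole sorted populations, fewer cells of a type and less RNA per cell cannot be told apart.

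**Figure D1:**
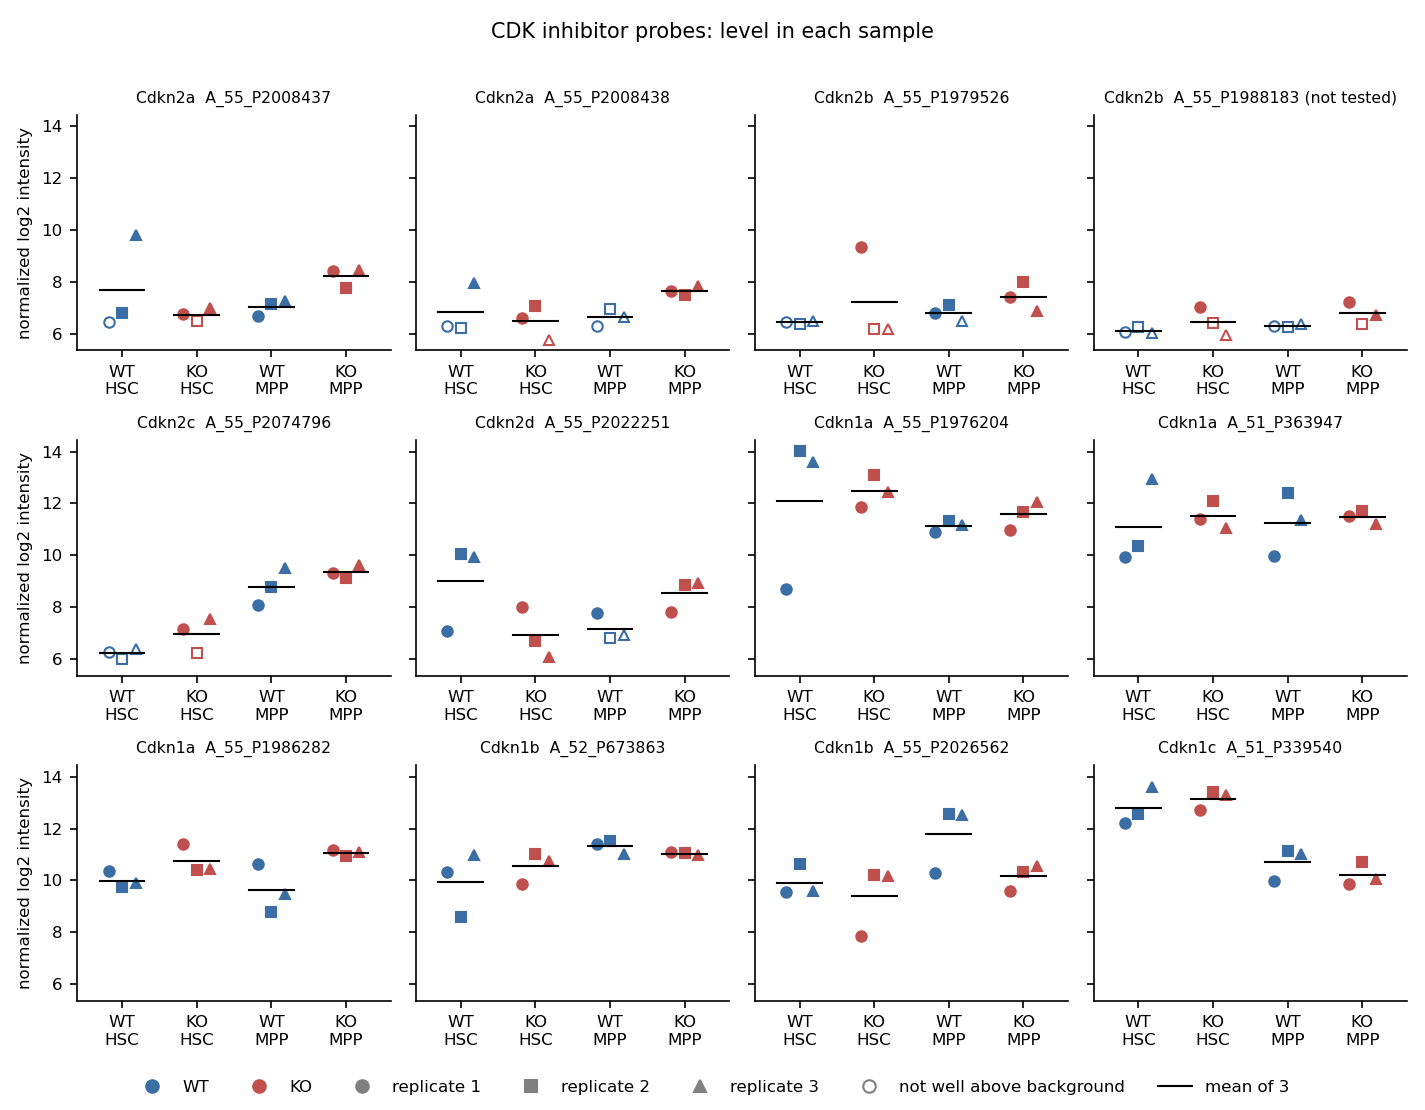
Normalized log2 intensity of each of the 12 probes in every sample: WT in blue (Cy3), KO in red (Cy5), 1 symbol per replicate, open where the spot was not well above background, with a bar at the mean of 3. Cdkn2c stands higher and Cdkn1c lower in MPPs than in HSCs in both colours, whereas the WT HSC samples of Cdkn2a A_55_P2008437, Cdkn2d, Cdkn1a A_55_P1976204 and Cdkn1a A_51_P363947 are spread widely, with SDs of 1.84, 1.68, 2.96 and 1.63.

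Levels below are log2 intensities after normalization, given in the order of replicates 1, 2 and 3. A level is compared only within 1 probe, since probes differ in brightness, and a fold set between the dyes is open to dye bias. A probe was called when its adjusted p from limma (Benjamini-Hochberg over all 44640 probes tested) was under 0.05. Of the member probes 11 were tested, and 1 of the Cdkn2b probes was too dim. Errors are standard errors (SE) of the limma fit, over 3 arrays in each group. The fit of the ratios used 1 spread for HSCs and MPPs together. The SE of a probe's ratio is therefore the same in both populations and does not show the spread within either. Figures in the comparison of KO with WT are ratios on the log2 scale, so that 1 stands for a doubling.

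Cdkn2a was higher in KO than in WT on all 3 MPP arrays at both probes, and had no common direction in HSCs. For A_55_P2008437, WT HSCs had levels of 6.45, 6.82 and 9.81 and KO HSCs 6.76, 6.49 and 6.98. WT MPPs had 6.68, 7.16 and 7.27 and KO MPPs 8.42, 7.77 and 8.46. The KO MPP samples lay above every WT MPP sample and every KO HSC sample, and 1 WT HSC sample, replicate 3, lay above all others. KO and WT levels are set across dyes, and the share of all probes with KO above WT in this way was not counted. The log2 ratios were 0.31, -0.32 and -2.82 on the HSC arrays and 1.74, 0.61 and 1.19 on the MPP arrays. Their means were -0.95 (SE 0.60, adjusted p = 0.724) in HSCs and 1.18 (SE 0.60, adjusted p = 0.992) in MPPs.

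The second Cdkn2a probe, A_55_P2008438, had a lower signal. WT HSCs had 6.30, 6.23 and 7.97, KO HSCs 6.63, 7.09 and 5.78, WT MPPs 6.30, 6.94 and 6.66 and KO MPPs 7.67, 7.49 and 7.83. It was well above background in 3 of 3 KO MPP samples and in 0 of 3 WT MPP samples. Only the KO MPP group let this probe pass the filter on dim probes. The filter thus favoured a higher level there, so this probe adds no support to the first. The ratio in MPPs was 1.03 (SE 0.58, 2.04-fold, 95% interval -0.38 to 2.44, adjusted p = 0.992). Replicate 3 was again the high WT HSC sample, the only one well above background. The ratio in HSCs was -0.34 (SE 0.58) with all arrays and 0.60 without HSC 3, and at the first probe it was -0.01 without that array. The probes shared the sign of the ratio on 5 of 6 arrays, with the widest gap, 1.18, on HSC 2.

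The effect of the KO on A_55_P2008437 was larger in MPPs than in HSCs by 2.13 (SE 0.85, unadjusted p = 0.0446, adjusted p = 0.968), and by 1.19 without HSC 3. The ratios of the populations did not overlap at this probe, which was so for 8.42% of all tested probes. At A_55_P2008438 the difference was 1.36 (SE 0.83), and 0.43 without HSC 3. Within the KO samples, where the dye is the same, MPPs exceeded HSCs at both probes without overlap, by 1.47 (SE 0.29, 2.78-fold, adjusted p = 0.158) and by 1.17 (SE 0.37, 2.24-fold, adjusted p = 0.342). Groups did not overlap within KO for 18.8% of all tested probes. Both Cdkn2a probes passed the filter only through MPPs, which favoured higher levels there. Within WT the differences were -0.65 (SE 0.89) and -0.20 (SE 0.53), and they changed sign to 0.40 and 0.37 without HSC 3.

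Cdkn2b, which encodes p15Ink4b, was at the edge of detection. A_55_P1979526 (chromosome 4, 88952720 to 88952779) was well above background in 0 of 3 WT HSC samples, 1 of 3 KO HSC samples, 2 of 3 WT MPP samples and 3 of 3 KO MPP samples. Its levels in KO MPPs were 7.42, 7.99 and 6.88, and in WT MPPs 6.79, 7.12 and 6.50. The ratio was positive on all 3 MPP arrays, with a mean of 0.62 (SE 0.63, adjusted p = 0.994). In HSCs the only measured signal was KO replicate 1, at 9.34, and the mean ratio of 0.79 (SE 0.63) was -0.26 without that array. The other probe, A_55_P1988183 (88952276 to 88952335), was not well above background in any WT sample and was seen in 1 KO HSC and 2 KO MPP samples. Its KO MPP levels were 7.23, 6.40 and 6.73.

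Cdkn2c, which encodes p18Ink4c, had higher levels in MPPs than in HSCs, without a call. For A_55_P2074796 (chromosome 4, 109333508 to 109333567) WT HSCs had 6.26, 5.99 and 6.39, none of them well above background, and WT MPPs had 8.09, 8.77 and 9.51. KO HSCs had 7.15, 6.22 and 7.55 and KO MPPs 9.31, 9.11 and 9.64. Each MPP sample lay above each HSC sample of either genotype. Groups did not overlap for 22.3% of all tested probes within WT and for 18.8% within KO. This probe passed the filter only through MPPs, which favoured higher levels there. WT MPPs were at least 5.43-fold higher than WT HSCs (adjusted p = 0.0907), and KO MPPs were 5.21-fold higher than KO HSCs (2.38, SE 0.39, adjusted p = 0.102). Neither passed the threshold. Of 17 settings, the WT difference passed in 1, the Agilent processed signals (adjusted p = 0.0351), and the KO difference in 0. With 1 array left out, the WT difference was between 2.21 and 2.92 on the log2 scale, with adjusted p from limma of 0.0932 to 0.247.

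Cdkn2c was also higher in KO than in WT on all 6 arrays, as 3.03% of all tested probes were. The HSC arrays gave ratios of 0.89, 0.23 and 1.17 and the MPP arrays 1.22, 0.35 and 0.13. Their means were 0.76 (SE 0.32, adjusted p = 0.676) and 0.57 (SE 0.32, adjusted p = 0.992), and the mean over both populations was 0.66 (SE 0.23, unadjusted p = 0.0244, adjusted p = 0.622). As no WT HSC sample was well above background, the bound on the dim signal put the KO HSC mean at least 1.55-fold higher, across dyes. KO HSCs were measured in 2 of 3 samples, and replicate 2 (6.22) was not well above background. The 95% interval of the HSC ratio, -0.01 to 1.53, included 0. The effect did not differ detectably between populations (-0.19, SE 0.45, 95% interval -1.29 to 0.90).

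Cdkn2d, which encodes p19Ink4d, had the widest spread of ratios among the Ink4 genes. At A_55_P2022251 (chromosome 9, 21092934 to 21092993) WT HSCs had 7.07, 10.03 and 9.93 and KO HSCs 8.01, 6.69 and 6.06. WT MPPs had 6.81 and 6.93 in replicates 2 and 3, both not well above background, and 7.77 in replicate 1. KO MPPs had 7.83, 8.87 and 8.92, the lowest of them close to WT MPP replicate 1. These KO and WT levels are set across dyes. The HSC arrays gave ratios of 0.94, -3.34 and -3.87 and the MPP arrays 0.06, 2.06 and 1.99, so replicate 1 differed from the other two in both populations. The mean was -2.09 (SE 0.95, adjusted p = 0.678) in HSCs, where it ranged from -3.60 to -1.20 when 1 array was left out, and 1.37 (SE 0.95, adjusted p = 0.994) in MPPs. The difference between populations was 3.46 (SE 1.35, unadjusted p = 0.0401, adjusted p = 0.968), and the ratios overlapped.

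Among the Cip/Kip genes, Cdkn1a was measured at 3 places and these did not move together. The probe of the upstream variant, A_55_P1986282, was higher in KO on all 6 arrays, as 3.03% of all tested probes were. WT HSCs had 10.35, 9.73 and 9.88 and KO HSCs 11.42, 10.39 and 10.43. WT MPPs had 10.62, 8.79 and 9.48 and KO MPPs 11.17, 10.95 and 11.09. KO and WT levels did not overlap in either population, in HSCs by a small margin (lowest KO 10.39, highest WT 10.35). These levels are set across dyes, and the share of all probes without such overlap was not counted. The KO MPP samples lay within a narrow range while the WT MPP samples were spread. In MPPs the SD over samples was larger in WT than in KO for 7 of 11 members and for 63.7% of all tested probes. The ratios were 1.07, 0.66 and 0.55 in HSCs (mean 0.76, SE 0.35, adjusted p = 0.679). They were 0.55, 2.16 and 1.62 in MPPs (mean 1.44, SE 0.35, unadjusted p = 0.00541, adjusted p = 0.992). The SD of the ratios was 0.27 in HSCs and 0.82 in MPPs, behind the same shared SE. Over both populations the mean was 1.101 (SE 0.25, 2.14-fold, 95% interval 0.51 to 1.70, unadjusted p = 0.00370, adjusted p = 0.619).

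The probe shared by both Cdkn1a transcripts, A_51_P363947, was printed 10 times on each array, which separates the error of a spot from the difference between samples. The HSC arrays gave 1.46, 1.73 and -1.92 and the MPP arrays 1.57, -0.69 and -0.16. The SD over the spots of an array was between 0.03 and 0.08, so the change of sign between arrays is far larger than the error of the spots. It lay mostly in the WT samples, with levels of 9.95, 10.35 and 12.96 for HSCs and of 9.96, 12.40 and 11.37 for MPPs. The KO levels were closer together, 11.41, 12.08 and 11.03 in HSCs and 11.53, 11.71 and 11.21 in MPPs. The mean ratio was 0.42 (SE 0.79) for HSCs and 0.24 (SE 0.79) for MPPs, with adjusted p of 0.904 and 0.999.

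The third Cdkn1a probe, A_55_P1976204, gave ratios of 3.17, -0.92 and -1.16 for HSCs and of 0.07, 0.37 and 0.90 for MPPs. The WT HSC samples had 8.71, 14.04 and 13.59 and the KO HSC samples 11.88, 13.11 and 12.43, so WT replicate 1 stood more than 4 log2 units below the other WT samples. This probe shared the sign of the ratio with the shared-transcript probe on 3 of 6 arrays and with the upstream-variant probe on 4. The shared-transcript and the upstream-variant probe matched in sign on 3 arrays and were 2.85 apart on MPP 2. None of the 3 probes separated MPPs from HSCs within either genotype, with differences from -0.99 to 0.16 in WT and from -0.90 to 0.32 in KO.

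Cdkn1b, which encodes p27Kip1, gave unlike values at its probes on chromosome 6. For A_55_P2026562 (134875424 to 134875483), the only one with a RefSeq transcript, WT MPPs had 10.28, 12.57 and 12.51 and KO MPPs 9.60, 10.33 and 10.56. Every MPP array had less in KO, with ratios of -0.68, -2.23 and -1.95 and a mean of -1.62 (SE 0.50, 3.07-fold lower, unadjusted p = 0.0161, adjusted p = 0.992). The ratios in HSCs were -1.69, -0.41 and 0.56 (mean -0.52, SE 0.50). A_52_P673863 (134873606 to 134873665), 1818 bases away, also had less in KO on every MPP array, but by 0.32, 0.49 and 0.04 on the log2 scale (mean -0.28, SE 0.57, adjusted p = 0.999). In HSCs its ratios were -0.44, 2.46 and -0.21. Over both populations the first probe had a mean of -1.07 (SE 0.35, unadjusted p = 0.0215, adjusted p = 0.622) and the second one of 0.16 (SE 0.40). Within WT both probes had higher levels in MPPs, by 1.87 (SE 0.70, adjusted p = 0.303) and 1.36 (SE 0.63, adjusted p = 0.366), without overlap only at A_52_P673863. Groups did not overlap within WT for 22.3% of all tested probes.

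Cdkn1c, which encodes p57Kip2 and is expressed from the maternal allele, differed between the populations in the opposite direction to Cdkn2c. At A_51_P339540 (chromosome 7, 150644753 to 150644812) WT HSCs had 12.22, 12.56 and 13.59 and KO HSCs 12.72, 13.39 and 13.31. WT MPPs had 9.99, 11.13 and 11.00 and KO MPPs 9.86, 10.699 and 10.07. All 6 HSC samples lay above all 6 MPP samples. Groups did not overlap for 22.3% of all tested probes within WT and for 18.8% within KO. In KO cells Cdkn1c fell by 2.93 on the log2 scale from HSCs to MPPs (SE 0.33, 7.63-fold, adjusted p = 0.0403), the only call among the members in any comparison, where 0.208% of tested probes were called. In WT cells the difference was -2.08 (SE 0.49, 4.23-fold, adjusted p = 0.205).

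The call on Cdkn1c lay close to the threshold. It was lost, in the same direction, with the Agilent processed signals (adjusted p = 0.0582), without the filter on dim probes (adjusted p = 0.0595), with the slide row in the fit (-3.28, adjusted p = 0.347) and whenever 1 array was left out. In those last fits the difference was between -3.18 and -2.76, with adjusted p from 0.0733 to 0.198. The KO against WT ratio of Cdkn1c was 0.35 (SE 0.31) in HSCs, on arrays of 0.51, 0.83 and -0.28. In MPPs it was -0.50 (SE 0.31), negative on each array at -0.13, -0.43 and -0.93. The difference between these effects was -0.85 (SE 0.44, adjusted p = 0.968).

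**Figure D2:**
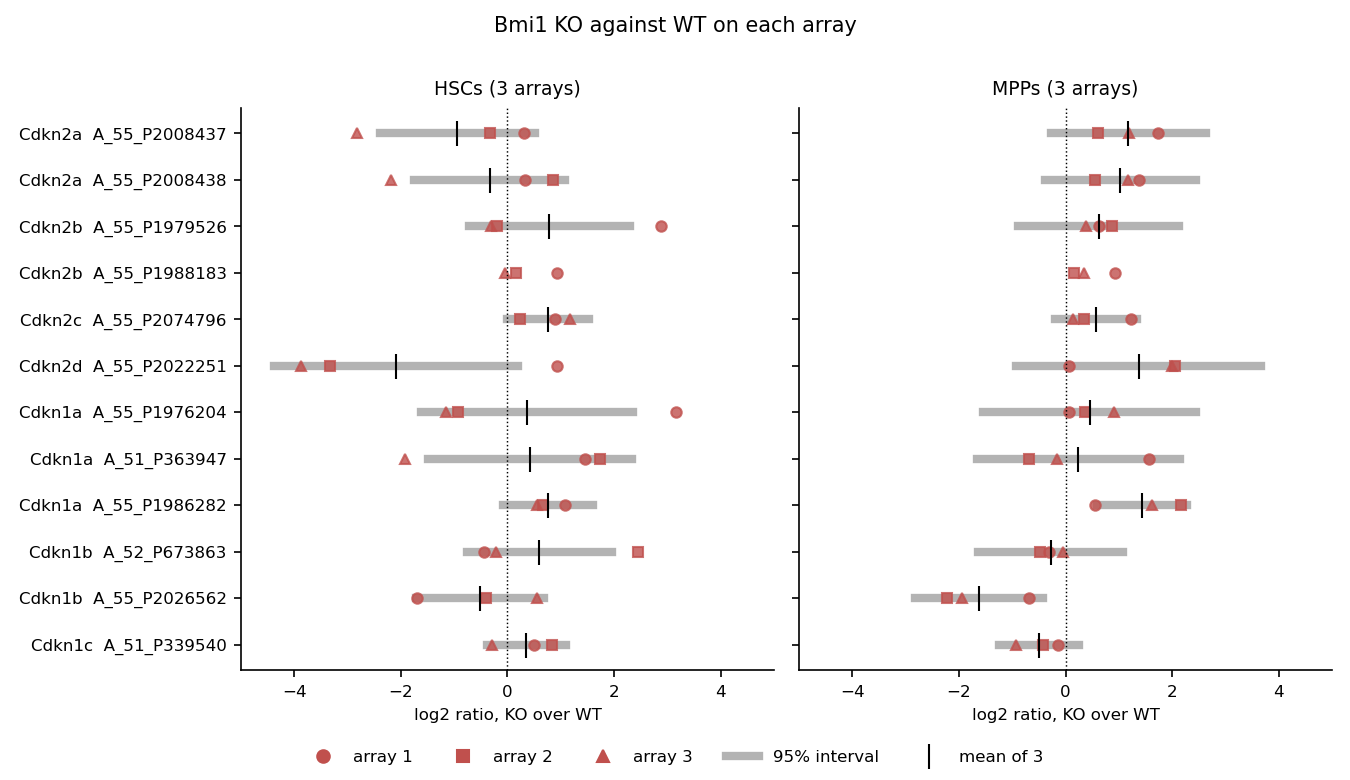
Log2 ratio of KO over WT for each member probe on the 3 HSC arrays (left) and the 3 MPP arrays (right), with the mean and its 95% interval for the 11 tested probes. Signs are mixed in HSCs, whereas in MPPs 10 of 11 tested probes have the same sign on all 3 arrays. Cdkn2a A_55_P2008438 and Cdkn2b A_55_P1979526 passed the filter only through KO MPPs, where they are high.

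Across the family, KO and WT were compared first in HSCs. Of the 11 tested probes 7 had a positive mean ratio and 4 a negative one, with a median of 0.36. Only 2 of 11 had the same sign on all 3 arrays, Cdkn2c and the upstream-variant probe of Cdkn1a, against 26.8% of all tested probes. With limma 0 members were called, as were 0% of all probes, and 0 members had an unadjusted p under 0.05 against 7.34% of all probes.

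In MPPs 8 of 11 probes had a positive mean ratio, with a median of 0.57. Here 10 of 11 had the same sign on all 3 arrays, against 29.1% of all tested probes: the probes of Cdkn2a, Cdkn2b, Cdkn2c and Cdkn2d and 2 of Cdkn1a were higher in KO, and those of Cdkn1b and Cdkn1c were lower. The exception was the shared-transcript probe of Cdkn1a. Cdkn2a A_55_P2008438 and Cdkn2b A_55_P1979526 passed the filter only through KO MPPs, the group where they are high. The filter thus favoured a positive sign of these probes in MPPs, so they add no support to the count. Probes of 1 gene read the same gene in the same samples and are not independent of each other. With limma 0 members and 0% of all probes were called. An unadjusted p under 0.05 was reached by 2 members, Cdkn1a A_55_P1986282 and Cdkn1b A_55_P2026562, against 4.81% of all probes.

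MPP 1 lay in row 1 of the slide together with the HSC arrays, MPP 2 and MPP 3 lay in row 2, and the B lineage markers were least changed on MPP 1. Of the 3 MPP arrays, MPP 1 had the ratio nearest to 0 for 5 of the 11 tested probes: Cdkn2d, Cdkn1a A_55_P1976204 and A_55_P1986282, Cdkn1b A_55_P2026562 and Cdkn1c. It had the ratio farthest from 0 for 4, both Cdkn2a probes, Cdkn2c and Cdkn1a A_51_P363947, and the middle one for 2. The part of slide row and of B lineage cells in the ratios was not tested.

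For the difference between the effects in MPPs and HSCs, 2 members, Cdkn2a A_55_P2008437 and Cdkn2d, had an unadjusted p under 0.05 against 4.15% of all probes, and 0 members and 0% of all probes were called by limma. For the mean effect over both populations, 3 members did, Cdkn2c, Cdkn1a A_55_P1986282 and Cdkn1b A_55_P2026562, against 7.9% of all probes, and again 0 members and 0% of all probes were called.

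**Figure D3:**
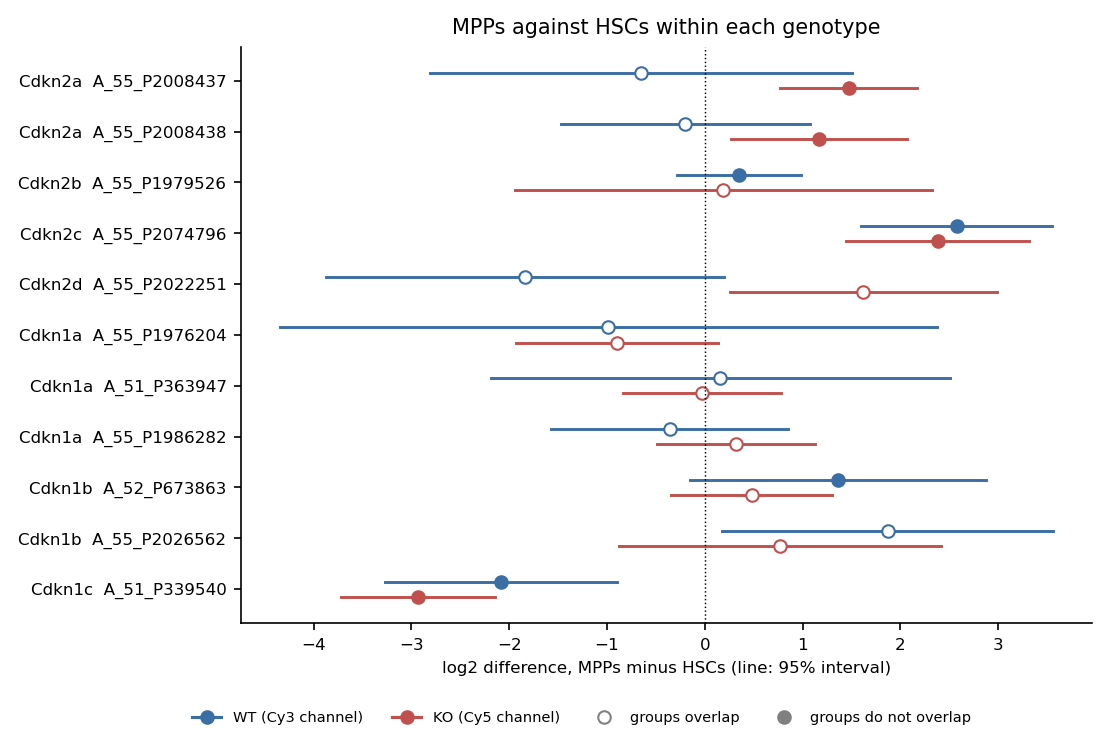
Log2 difference of MPPs minus HSCs for the 11 tested probes, within WT (blue) and within KO (red), with 95% intervals; filled points mark groups of 3 that did not overlap. Cdkn2c lies to the right and Cdkn1c to the left of 0 in both genotypes.

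The step from HSCs to MPPs was compared within each dye. Within WT, 5 member probes were higher and 6 lower in MPPs. With limma 0 members were called against 0.305% of all probes, and 3 had an unadjusted p under 0.05, Cdkn2c, Cdkn1b A_55_P2026562 and Cdkn1c, against 15.1% of all probes. Groups did not overlap for 4 of 11 members, against 22.3% of all probes. Within KO, 8 were higher and 3 lower. Cdkn1c was called, and 5 had an unadjusted p under 0.05 (both Cdkn2a probes, Cdkn2c, Cdkn2d and Cdkn1c) against 11.5% of all probes. Groups did not overlap for 4 of 11, against 18.8%. Both Cdkn2a probes, Cdkn2b A_55_P1979526 and Cdkn2c passed the filter only through MPPs. Where these probes stood higher in MPPs, the filter favoured that outcome.

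Markers of mature cells also differed between the populations. Within KO, 14 of 14 B lineage markers were higher in MPPs than in HSCs (median 3.56, 2 called, 11 with an unadjusted p under 0.05), and within WT 12 of 14 were (median 0.44, 1 called). Neutrophil and monocyte markers were higher in WT MPPs for 9 of 11 members (median 1.39) and in KO MPPs for 10 of 11 (median 2.16), and those of basophils, mast cells and eosinophils for 8 of 8 in each genotype. The neutrophil and monocyte and the basophil list had 0 called by limma, with 5 and 2 (neutrophil and monocyte) and 5 and 1 (basophil list) at an unadjusted p under 0.05 in WT and KO. Their part in the differences of the CDK inhibitors was not tested.

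The genes whose levels followed Cdkn1c most closely over the 12 samples, each level centred on the mean of its dye, were Sult1a1 (r = 0.965), Gata2 (r = 0.963), Vwf (r = 0.954) and Olfr576 (r = 0.944). Gata2, a transcription factor of HSCs, and Vwf, the platelet adhesion factor, are both known in stem cells. Of the other member probes, Cdkn2c had the strongest correlation with Cdkn1c, and it was negative (r = -0.846). Cdkn2a was followed most closely by Cd151 (r = 0.962), Fgf12 (r = 0.951), Creb1 (r = 0.909) and Fam55d (r = 0.908). Of the probes of other members, the closest to Cdkn2a were Cdkn1a A_51_P363947 (r = 0.593) and Cdkn2d (r = 0.575). The Cdkn2a level was highest in WT HSC replicate 3 (9.81), and that sample weighs heavily in all correlations with Cdkn2a. Cdkn1a A_51_P363947 was also highest there (12.96). The points are 6 arrays of 2 channels in 2 populations, so these values describe a shared pattern only.

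**Figure D4:**
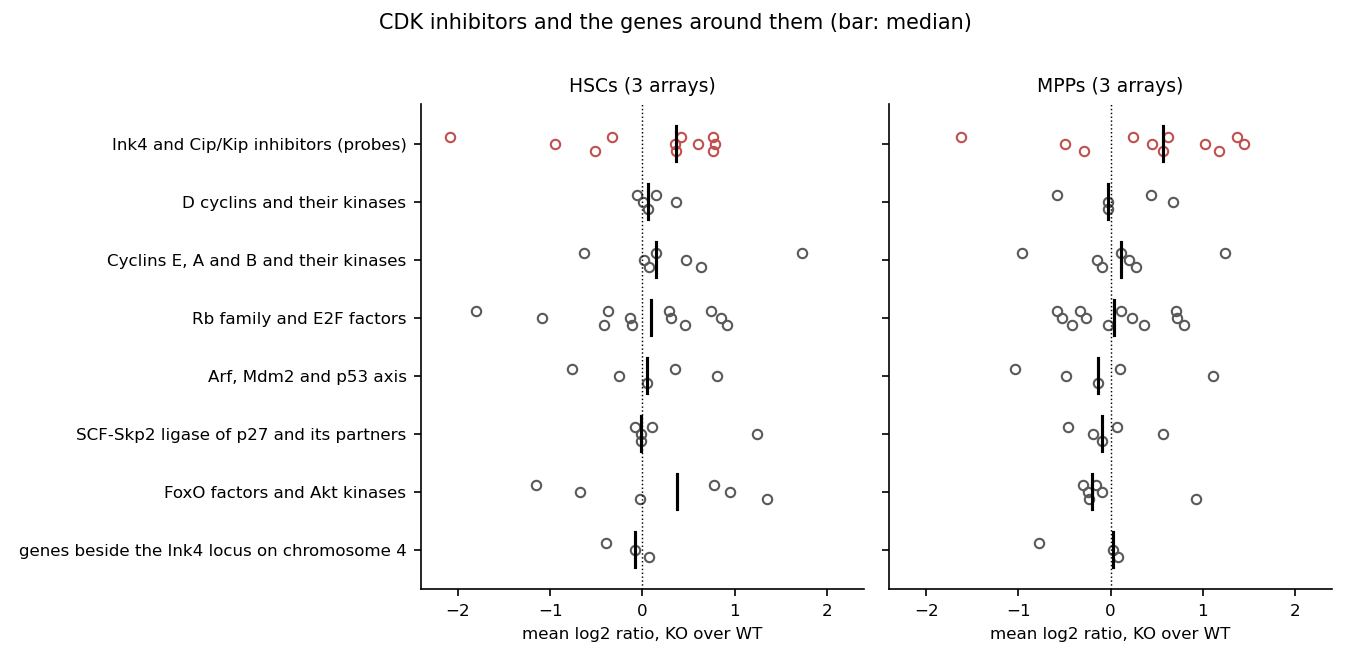
Mean log2 ratio of KO over WT in HSCs (left) and MPPs (right), 1 point per tested member probe for the inhibitors (red) and 1 per gene for 7 lists of genes around them (grey), with the median as a bar. The median of the inhibitors is 0.36 in HSCs, where those of the lists lie between -0.08 and 0.37, and 0.57 in MPPs, where they lie between -0.20 and 0.12.

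The genes of 7 lists around the inhibitors (their targets, the factors that control them and the neighbours of the Ink4 locus) were counted with 1 probe a gene. Of 43 tested, limma called 0 in any comparison. An unadjusted p under 0.05 was reached by 4 for KO against WT in HSCs, against 7.34% of all probes, and by 3 in MPPs, against 4.81%. The targets of the Ink4 proteins, 5 D cyclins and partner kinases, had 4 higher and 1 lower in KO HSCs and 2 higher and 3 lower in KO MPPs. Ccnd2, cyclin D2, had a ratio of 0.36 (SE 0.31) in HSCs and of 0.68 (SE 0.31) in MPPs, higher in KO on all 3 MPP arrays. Cdk6, a kinase partner of the D cyclins, had a ratio of 0.15 (SE 0.29) in HSCs and of -0.59 (SE 0.29) in MPPs. Its level in MPPs exceeded that in HSCs by 2.73 (SE 0.62, adjusted p = 0.196) in WT and by 2.00 (SE 0.51) in KO. Of 7 tested cyclins E, A and B and their kinases, 6 were higher in KO HSCs and 4 in KO MPPs. Cdk2, their kinase, stood at 1.73 (SE 0.63) in HSCs but at -0.96 (SE 0.63) in MPPs. Ccne1, cyclin E1, stood at 1.24 (SE 0.41) in MPPs.

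Of 12 tested Rb family and E2F genes 6 were higher and 6 lower in each population. Rb1, the retinoblastoma gene, stood at -1.81 (SE 0.62) in HSCs and its relative Rbl1, p107, at -1.09 (SE 0.38), both negative on 3 of 3 arrays with an unadjusted p of 0.0255 and 0.0253. In MPPs Rbl1 stood at 0.80 (SE 0.38), higher on 3 of 3 arrays, and the difference between its effects was 1.89 (SE 0.53, unadjusted p = 0.0109, adjusted p = 0.968). Rb1 stood at -0.58 (SE 0.62) in MPPs. In the Arf, Mdm2 and p53 axis, 3 of 5 were higher in KO HSCs and 2 of 5 in KO MPPs. Npm1, the nucleolar partner of Arf, had 1.11 (SE 0.40) in MPPs, and Trp53 had 0.35 (SE 0.47) and -0.13 (SE 0.47). Of the SCF-Skp2 ligase that degrades p27, 2 of 5 genes were higher in either population. Of the FoxO factors, which activate Cdkn1b, and the Akt kinases that restrain them, 3 of 6 were higher in KO HSCs and 1 of 6 in KO MPPs. Akt1 stood at -1.15 (SE 0.46) in HSCs.

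Of the genes beside the Ink4 locus on chromosome 4, 3 of 4 were tested, and 1 was higher in KO HSCs and 2 in KO MPPs. Mtap, the neighbour of Cdkn2a, had 0.08 (SE 0.38) in MPPs. The Cdkn2a probes had 1.18 (SE 0.60) and 1.03 (SE 0.58) there, neither called, and the difference from Mtap was not tested. Klhl9 stood at -0.77 (SE 0.26, unadjusted p = 0.0217) in MPPs, lower in KO on 3 of 3 arrays.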

How the data were processed

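Gene expression was measured in 3 KO and 3 WT samples of each population on 6 two-colour arrays. Per the file headers, the deposited intensity of each spot and of its local background came from Agilent Feature Extraction 10.7.3.1 (8.5.1.1 per the submitters' processing notes). The deposited log10 ratio is that of the processed red to the processed green signal; the series table deposited by the authors holds the same log10 values. Marks for spots above background or outlying were deposited as 0 or 1.

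Mean intensities were corrected with normexp (offset 50), ratios were loess-normalized within arrays, and levels were set on 1 scale by Aquantile between arrays (limma 3.58.1, R 4.3.3), as log2 values computed from the deposited intensity. Spots marked as outlying were left out, and spots of a probe were averaged. A probe was tested when 1 or more of the 4 groups had it well above background on each of its 3 arrays and all 6 arrays gave a value. Ratios were fitted over all 6 arrays with 1 mean per population and 1 spread shared by both populations. Levels were fitted within each dye. Both fits used lmFit and eBayes, two-sided. The p-values measure the spread between these samples. An exact sign-flip test of 3 arrays cannot go below 0.25. "At least" folds set the bright group's mean against, per array, the higher of the dim probe's own signal and the lowest signal well above background. Such a fold bounds the dim signal only and does not cover the spread between samples. The fit was tested on simulated data.

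Every probe of the members was named, and of each list up to 4 genes with the smallest p in HSCs or MPPs; the likeness rule took 4 named genes for the brightest tested probe of Cdkn2a and of Cdkn1c. Members and lists were chosen with earlier results of these data known. Gene names are those of the array; 10 of 12 member probes matched RefSeq symbols by accession. Promoters are from RefSeq (GRCm38.p6). The p53 consensus was searched by script on the symmetric 20-base form without spacer. Alternatives were the background correction, the normalization, the filters, the summary of probes, the marked spots, the Agilent processed values, the replicate number, the slide row and each array left out.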

Additional observations from a re-analysis of the deposited data

How the results depend on the processing

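No member was called in any KO against WT comparison under any alternative, and the number of arrays limits what could be detected. Median centring in place of loess put the median of all probes at 0.24 in HSCs and 0.21 in MPPs, against -0.0037 and -0.0034 with loess, so the ratios are relative to an intensity-dependent centre. It gave 157 called probes for the mean KO effect. For the levels, that setting quantile-normalized the background-corrected signals within each dye, and 157 were called within KO. Without the filter on dim probes 66 were called within WT. With the replicate block, and with the slide row as a covariate, 0 were called within WT and 0 within KO; the row fit rests on 1 MPP array. Replicate numbers did not pair the samples (r of deviations -0.07 to 0.01 for ratios, 0.04 to 0.15 for WT levels and -0.01 to 0.08 for KO levels, so not over 0.1 for every pair). The replicate block lost the Cdkn1c call (adjusted p = 0.139) and changed no other member's call. Leaving out 1 array gave 0 to 105 calls within WT and 23 to 85 within KO.

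Of the member values 17 changed sign under another setting than leaving out an array, all of them not called; the cause was not tested. With median centring the effect difference was 0.082 for Cdkn2b, -0.29 for Cdkn1a A_55_P1976204 and 0.40 for Cdkn2c, the mean effect of Cdkn1c was 0.36, and A_51_P363947 within KO was 0.032 with the quantile-normalized levels. With the Agilent processed signals these were 0.88 (Cdkn2b, effect difference), 0.37 (Cdkn2d, mean effect) and 0.058 (A_51_P363947 within KO). Offset 16 gave 0.014 for the effect difference of Cdkn2b, and the mean over probes gave -0.45 for the mean effect of Cdkn1b. With the slide row the effect differences were 1.14 (A_51_P363947), -0.29 (A_55_P1976204), -0.21 (A_55_P1986282) and 0.46 (Cdkn2c), and the differences of populations were -1.13 (A_51_P363947, WT), 0.63 (A_55_P1986282, WT) and 0.019 (A_51_P363947, KO).

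Leaving out 1 array changed the sign of member values that were not called, with the range over the arrays left out in parentheses. For KO against WT in HSCs these were A_51_P363947 (-0.23 to 1.60), A_55_P1976204 (-1.04 to 1.12), Cdkn2b (-0.26 to 1.34), A_55_P2026562 (-1.05 to 0.074), A_52_P673863 (-0.33 to 1.12) and A_55_P2008438 (-0.93 to 0.60). For KO against WT in MPPs these were A_51_P363947 (-0.43 to 0.70). For the effect difference these were A_51_P363947 (-1.36 to 0.47), Cdkn2b (-0.71 to 0.88), A_52_P673863 (-1.41 to 0.045), A_55_P1976204 (-0.67 to 1.49) and Cdkn2c (-0.52 to 0.024). For the mean effect these were A_55_P1976204 (-0.30 to 0.79), A_55_P2008437 (-0.20 to 0.59), A_52_P673863 (-0.31 to 0.42), Cdkn1c (-0.19 to 0.085), Cdkn2d (-1.12 to 0.084) and A_51_P363947 (-0.0018 to 0.92). For MPPs against HSCs within WT these were A_51_P363947 (-0.42 to 1.09), A_55_P2008437 (-1.27 to 0.40), A_55_P2008438 (-0.50 to 0.37) and A_55_P1986282 (-0.85 to 0.061). For MPPs against HSCs within KO these were A_55_P2026562 (-0.014 to 1.17), A_51_P363947 (-0.26 to 0.26) and Cdkn2b (-0.34 to 1.24).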
